A study of Homo sapiens with 6 samples.

Results

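The genes described here are the transporter families SLC1, SLC3, SLC6, SLC7, SLC36, SLC38 and SLC43, which hold most of the known carriers that move amino acids across the membranes of human cells. Members were taken by symbol, and 38 of 19437 genes in the deposited table matched. The RefSeq gene table names 22 further symbols of these families, which were not analysed here. Messenger RNA was measured in SCC9 cells, an established line from a human oral squamous cell carcinoma, 48 h after transduction at a multiplicity of infection of 25. In 3 libraries (A, B and C) the adenovirus carried TEADi, which the labels call a TEAD inhibitor protein, and in the 3 control libraries it carried green fluorescent protein (GFP). All cells were grown with serum and hydrocortisone. Beyond transduction in triplicate the labels name no separate cultures, so p-values here reflect spread among libraries that may be technical copies of 1 culture. Fewer cells of a type and less RNA per cell cannot be told apart in such bulk libraries.

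Amino acid carriers differ in what drives them. Exchangers such as SLC7A5 and SLC1A5 let an amino acid in only as another leaves, sodium-coupled carriers such as SLC38A1 and SLC38A2 give a net inflow of glutamine and small neutral amino acids, and uniporters such as SLC7A1 follow the gradient and the membrane potential. Several light chains of the SLC7 family reach the cell surface only when bound to the heavy chain SLC3A2 (4F2hc, CD98). Some members sit on the lysosome, where SLC38A9 reports arginine to the growth kinase complex mTORC1. A few members of SLC6 and SLC43 carry amines, creatine, taurine or nucleobases instead.

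TEADi libraries held less RNA of the leucine exchanger SLC7A5, the cystine exchanger SLC7A11, their heavy chain SLC3A2, the arginine carrier SLC7A1 and the glutamine exchanger SLC1A5, and more RNA of the sodium-coupled glutamine carrier SLC38A1, its relative SLC38A10 and the neutral exchanger SLC1A4. Of the 38 members, 30 reached 1 CPM in at least 3 of 6 libraries and were tested. CPM are the authors' read counts per library size after TMM scaling, and a gene was called where its Benjamini-Hochberg adjusted p in limma, taken over 13640 genes on log2(CPM + 1), was under 0.05. In TEADi 13 members were called higher and 10 lower, 23 in all. Of the tested members 76.7% were thus called, 43.3% higher and 33.3% lower, against 60.8% of all genes tested, 25.5% higher and 35.3% lower. The balance over all genes rests on the scaling: 42.0% of all calls were higher (3482 genes higher, 4817 lower), against 50.4% with libraries set to equal totals (4196 higher, 4126 lower) and 52.3% with median-ratio factors (4342 higher, 3959 lower), and in both rescalings 14 members were higher and 9 lower. The median log2 fold change was 0.21 over the members and -0.07 over all genes. Over the members this median was 0.05 with a filter of 5 CPM, 0.09 without GFP library A and 0.30 with median-ratio factors. Over all genes it was -0.11, -0.05 and 0.02 in the same order. A change of at least 2-fold (a fitted log2 fold change of at least 1 either way) was called for 4 members, 13.3% of those tested, against 7.95% of all genes. SLC1A1 was the 1 member this much higher (5.07% of all genes), and SLC38A4, SLC7A5 and SLC7A11 were the 3 this much lower (2.89% of all genes). Membership of this set depends on the processing. With a pseudocount of 5 the log2 fold changes of SLC1A1 and SLC38A4 were 0.47 and -0.93, with a pseudocount of 0.1 that of SLC7A8 was 1.11, and that of SLC7A11 was -0.98 after median-ratio scaling and -0.96 after quantile normalization. In 24 members (80.0%) the TEADi and GFP libraries did not overlap, as in 65.8% of all genes tested. SLC1A1 passed the filter through its TEADi libraries alone and so had to be higher there. Without it 22 of 29 members (75.9%) were called, 12 higher and 10 lower, and the 2-fold set held only the 3 falls. These counts do not stand for all 38 members.

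**Figure D1:**
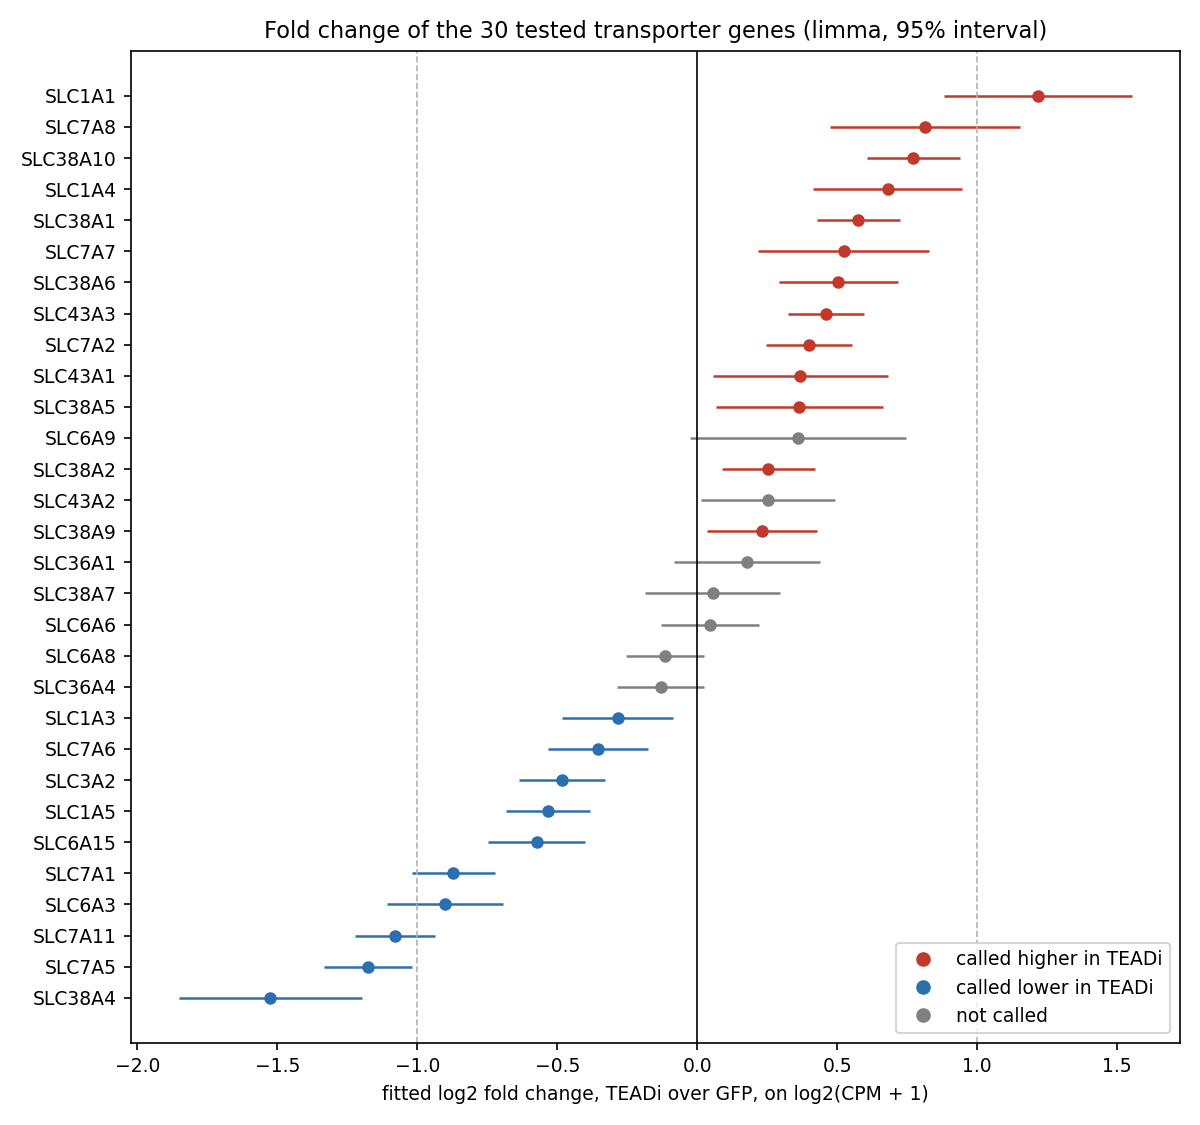
Fitted log2 fold change of TEADi over GFP for the 30 tested members, one gene per row, with 95% intervals from limma. Dashed lines mark a 2-fold change. SLC1A1 lies highest at 1.22 and SLC38A4 lowest at -1.53, and the 7 grey genes were not called.

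Promoters of 4 members are shown because they span the changes. SLC7A5 and SLC38A4 were among the 3 called falls of at least 2-fold, SLC3A2 fell and SLC38A1 rose. Each run is the 250 bases before a start site in RefSeq on GRCh38.p14, 5′ to 3′ on the gene's strand, and capitals mark a match to a searched motif. Which start SCC9 cells use was not measured.
SLC7A5, chr16:87869508-87869757, minus strand: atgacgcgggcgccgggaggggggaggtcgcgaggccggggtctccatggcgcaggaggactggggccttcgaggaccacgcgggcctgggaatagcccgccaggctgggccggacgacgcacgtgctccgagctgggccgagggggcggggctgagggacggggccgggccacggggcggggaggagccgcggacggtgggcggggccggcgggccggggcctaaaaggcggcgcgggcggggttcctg
SLC38A4, chr12:46825998-46826247, minus strand: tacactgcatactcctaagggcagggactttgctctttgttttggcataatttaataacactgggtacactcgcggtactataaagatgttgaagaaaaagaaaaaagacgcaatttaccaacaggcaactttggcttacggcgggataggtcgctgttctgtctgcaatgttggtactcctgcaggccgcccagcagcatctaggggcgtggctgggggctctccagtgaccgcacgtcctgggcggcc
SLC3A2, chr11:62881449-62881698, plus strand: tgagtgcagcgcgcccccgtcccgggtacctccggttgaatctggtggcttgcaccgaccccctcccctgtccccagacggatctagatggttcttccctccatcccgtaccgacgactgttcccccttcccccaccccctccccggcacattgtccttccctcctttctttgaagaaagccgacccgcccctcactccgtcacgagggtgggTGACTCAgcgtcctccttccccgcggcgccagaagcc
SLC38A1, chr12:46266517-46266766, minus strand: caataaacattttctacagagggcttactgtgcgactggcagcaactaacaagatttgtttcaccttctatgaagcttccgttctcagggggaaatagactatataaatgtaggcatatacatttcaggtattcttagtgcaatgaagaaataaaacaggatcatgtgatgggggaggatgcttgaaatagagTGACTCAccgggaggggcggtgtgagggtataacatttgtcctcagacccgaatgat

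On both strands the motifs searched were GGAATG (the TEAD core), TGACTCA (AP-1) and 2 forms of the composite of ATF4 and C/EBP, TGATGNAAN and TGATGCAAT, the second a case of the first. SLC3A2 and SLC38A1, which moved in opposite directions, each had an AP-1 match in the window shown, and SLC7A5 and SLC38A4 had no match to any motif. SLC3A2 has 3 windows in the table and SLC38A1 has 2, and those not shown had 0 matches; the windows shown were picked for their match. Windows were given for 29 members (51 windows). The TEAD core stood in at least 1 window of 2 of 11 members called higher and of 2 of 7 called lower, and in 11.9% of 35116 human promoter windows. TGACTCA stood in windows of 2 of 11 and 2 of 7 such members and in 4.20% of all windows. TGATGNAAN was matched in 0 of 11 members called higher and in 2 of 7 called lower, SLC1A3 and SLC1A5, and in 3.13% of all windows, while the longer TGATGCAAT was matched in 0 of 51. A member can have several windows, so its chance of a match is above that of 1 window, and a match is a run of letters, not a bound site.

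The 6 libraries held 827124 to 915558 scaled CPM. In units of a library's lowest value this came to 9589768 to 15380584, the closest the table gives to a read depth. Of 7 markers listed for the line, 4 of 5 tested were lower in TEADi and 0 higher. Each marker count here is to be set beside all genes tested, of which 35.3% were lower and 25.5% higher. VIM was 1 of the 4, at 1161 ± 39.4 CPM in TEADi and 1562 ± 110 in GFP. It held most of this list's sum, which was 1288 to 1377 CPM in TEADi and 1729 to 1997 in GFP libraries. The epithelial keratin KRT8 was at 96.9 to 106 CPM in TEADi and 188 to 228 in GFP libraries, but the epithelial cadherin CDH1 was near the smallest value in TEADi (0.144 to 0.181 CPM in TEADi, 0.276 to 1.73 in GFP libraries), as was KRT19 (0.0603 to 0.173 CPM in TEADi, 0.138 to 1.90 in GFP libraries). Of 8 vascular and blood cell markers listed, only 3 had values, VWF, CDH5 and HBA1. These summed to at most 0.784 CPM in any library. The keratinocyte genes KRT5 and KRT14 set GFP libraries A and B apart. KRT5 stood at 0.173, 0.216 and 0.302 CPM in TEADi libraries A, B and C, against 21.7, 17.2 and 0.414 CPM in the GFP libraries in the same order. The 14 keratinocyte markers summed to 284 to 290 CPM in TEADi and 321 to 368 in GFP libraries, and of 6 tested 4 fell and 2 rose, KRT15 and PERP. Markers of fibroblasts summed to 1200 to 1268 CPM in TEADi and 542 to 706 in GFP libraries, with 5 of 7 tested higher. The matrix proteoglycan DCN (675 ± 19.4 CPM in TEADi, 54.5 ± 5.57 in GFP) made the difference in the sums: without it they overlapped, at 545 to 590 CPM in TEADi and 481 to 654 in GFP libraries. The collagen gene COL1A1 fell and COL1A2 was not called, while PDGFRA, LUM, THY1 and COL3A1 were called higher, like DCN. PDGFRA averaged 18.5 ± 1.84 CPM in TEADi and 1.26 ± 0.0618 in GFP. LUM averaged 180 ± 2.75 CPM in TEADi and 97.2 ± 6.89 in GFP. The part of these cell markers in the transporter results was not tested. Without GFP libraries A and B, 10 members were called higher and 10 lower, against 2933 and 3838 of 13290 genes. That fit has 1 GFP library, which is assumed to vary like the TEADi libraries. The YAP and TEAD target ANKRD1 was at 1.73 to 1.93 CPM in TEADi and 76.9 to 85.0 in GFP libraries.

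The heavy chain and its light chains held the best expressed of the called falls, 4 of 6 falling and 2 rising (median log2 fold change -0.42). Over all genes tested 35.3% fell and 25.5% rose. SLC7A5 (LAT1), the exchanger of leucine and other large neutral amino acids, on chromosome 16 (hg19, 87863629 to 87903094, minus strand), stood at 173, 171 and 184 CPM in TEADi libraries A, B and C, against 355, 423 and 424 CPM in the GFP libraries in the same order. The lowest GFP library, A, was well above the highest TEADi library. The mean was 176 ± 6.72 CPM in TEADi and 401 ± 39.5 CPM in GFP (SD over n = 3 libraries in each group, as for all later means), 2.27-fold lower. The fitted log2 change, with its SE, was -1.18 ± 0.08 (limma, Benjamini-Hochberg adjusted p = 8.1e-10). SLC7A11 (xCT), which brings in cystine for glutathione synthesis in exchange for glutamate, on chromosome 4 (hg19, 139085251 to 139163503, minus strand), stood at 95.9, 99.8 and 92.8 CPM in TEADi and at 192, 205 and 216 CPM in GFP libraries. The groups were again far apart, with means of 96.2 ± 3.54 CPM in TEADi and 204 ± 12.3 CPM in GFP, a log2 fold change of -1.08 ± 0.07 (limma, Benjamini-Hochberg adjusted p = 5.6e-10). SLC3A2 itself, on chromosome 11 (hg19, 62623518 to 62656352, plus strand), stood at 187, 192 and 207 CPM in TEADi and at 249, 291 and 281 CPM in GFP libraries. It fell by less than either partner, with means of 195 ± 10.0 CPM in TEADi and 274 ± 22.1 CPM in GFP and a log2 fold change of -0.48 ± 0.07 (limma, Benjamini-Hochberg adjusted p = 2.1e-05).

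The other light chains were lower in level and did not share 1 direction. SLC7A6 (y+LAT2), which exchanges arginine for neutral amino acids with sodium, stood at 38.3, 39.3 and 38.3 CPM in TEADi and at 43.6, 51.5 and 54.6 CPM in GFP libraries (log2 fold change -0.35 ± 0.08; limma, Benjamini-Hochberg adjusted p = 0.0016). All 3 TEADi libraries lay below the GFP libraries, but SLC7A6 overlaps SLC7A6OS on the opposite strand, whose mean level was 40.0% of its own and which was not called; use of strand in counting is not given. Its close relative SLC7A7 (y+LAT1) rose, with 6.90, 8.70 and 7.72 CPM in TEADi and 6.37, 4.25 and 4.83 CPM in GFP libraries (0.52 ± 0.14; limma, Benjamini-Hochberg adjusted p = 0.0048). In the authors' deposited table the adjusted p of SLC7A7 was 0.0622, and over all alternatives it ranged from 0.00038 to 0.0622. SLC7A8 (LAT2), a neutral exchanger of broader range than SLC7A5, stood at 2.85, 4.03 and 4.10 CPM in TEADi and at 1.37, 1.74 and 1.79 CPM in GFP libraries. Its mean was 2.24-fold higher in TEADi, and the fitted log2 fold change was 0.81 ± 0.16 (limma, Benjamini-Hochberg adjusted p = 0.00032).

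Set per length, as CPM per kilobase of merged exons in GENCODE 29, the 5 light chains summed to 56.9, 58.0 and 59.5 in TEADi libraries A, B and C, against 107, 124 and 126 in GFP libraries A, B and C. The heavy chain stood at 70.6, 72.3 and 77.8 CPM per kilobase in TEADi, against 93.7, 110 and 106 in GFP libraries. The light chains thus summed to 0.764 to 0.806 of the heavy chain in TEADi and to 1.13 to 1.19 of it in GFP libraries, and the groups did not overlap. SLC7A5 made up 64.5% to 67.4% of the light chain sum in TEADi and 72.5% to 74.7% in GFP libraries, and SLC7A6 10.1% to 10.7% in TEADi and 6.42% to 6.84% in GFP libraries. The share of SLC7A11 overlapped, at 16.2% to 17.9% in TEADi and 17.2% to 18.6% in GFP libraries. These ratios and shares rest on the exon lengths used, and the annotation behind the authors' counts is not given. They describe RNA and not protein at the membrane.

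**Figure D2:**
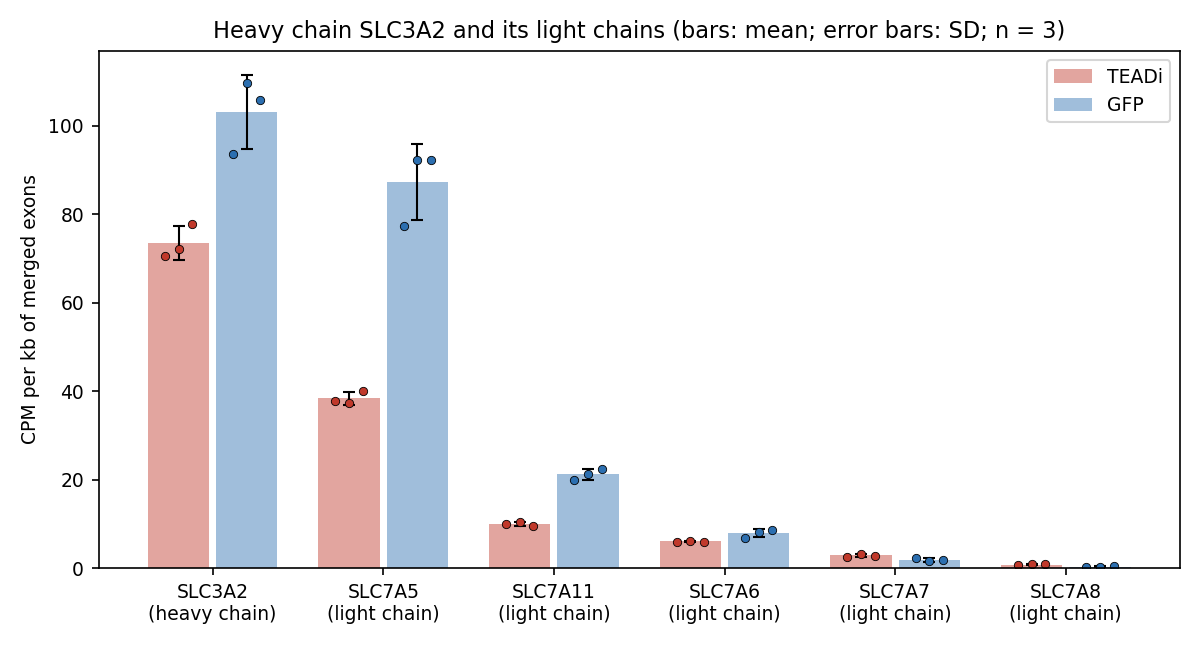
CPM per kilobase of merged exons for SLC3A2 and its 5 light chains in TEADi (left bar of each pair) and GFP (right bar). Bars are means, error bars SD over 3 libraries, points single libraries. SLC7A5 averaged 38.4 in TEADi and 87.3 in GFP, and SLC7A7 and SLC7A8 were low in both.

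Ratios of 2 transcripts within 1 library do not depend on how libraries are scaled. The 10 ratios given were chosen after the values were seen, mostly for pairs that moved apart, so their values are a description. An exact two-sided permutation test of 3 against 3 libraries cannot go below 0.1, so no ratio could pass a threshold of 0.05. SLC7A5 over SLC3A2 was 0.903 ± 0.0189 in TEADi and 1.46 ± 0.0413 in GFP, and SLC7A11 over SLC3A2 was 0.494 ± 0.0390 in TEADi and 0.749 ± 0.0382 in GFP. SLC7A6 over SLC3A2 overlapped (0.186 to 0.205 in TEADi, 0.175 to 0.195 in GFP). SLC7A7 over SLC3A2 was 0.0399 ± 0.00479 in TEADi and 0.0191 ± 0.00576 in GFP, and SLC7A8 over SLC3A2 was 0.0187 ± 0.00308 in TEADi and 0.00596 ± 0.000440 in GFP.

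The cationic amino acid carriers SLC7A1 (CAT1) and SLC7A2 (CAT2), which work without a heavy chain and take up arginine and lysine, went opposite ways. SLC7A1, on chromosome 13 (hg19, 30083547 to 30169825, minus strand), stood at 77.7, 79.8 and 83.6 CPM in TEADi and at 138, 147 and 160 CPM in GFP libraries. It was 1.84-fold lower in TEADi, with no overlap, and the log2 fold change was -0.87 ± 0.07 (limma, Benjamini-Hochberg adjusted p = 1.4e-08). SLC7A2 rose, with 98.0, 110 and 99.6 CPM in TEADi and 72.4, 76.9 and 83.0 CPM in GFP libraries (0.40 ± 0.07; limma, Benjamini-Hochberg adjusted p = 0.00015). Within each library SLC7A1 over SLC7A2 was 0.793, 0.728 and 0.839 in TEADi, against 1.90, 1.91 and 1.92 in the GFP libraries. In CPM, which are not per length, SLC7A1 thus had the larger value of the pair in every GFP library and the smaller in every TEADi library.

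Of 11 tested neutral and glutamine carriers 7 rose and 3 fell, SLC43A2 missed the threshold, and the median log2 fold change was 0.37. Of all genes tested 25.5% were called higher and 35.3% lower. The split is not firm, since the rises of SLC38A2, SLC38A5 and SLC43A1 lost their call in some alternatives. SLC1A5 (ASCT2), a glutamine exchanger common in proliferating cells, fell, with 148, 137 and 158 CPM in TEADi and 201, 227 and 215 CPM in GFP libraries (-0.53 ± 0.07; limma, Benjamini-Hochberg adjusted p = 6.4e-06). SLC38A1 (SNAT1), a sodium-coupled glutamine importer, rose, with 159, 181 and 164 CPM in TEADi and 107, 111 and 119 CPM in GFP libraries (0.58 ± 0.07; limma, Benjamini-Hochberg adjusted p = 2.3e-06). Neither pair of groups overlapped, and the ratio of SLC1A5 to SLC38A1 was 0.885 ± 0.113 in TEADi and 1.91 ± 0.119 in GFP. SLC38A2 (SNAT2), the importer that cells induce when amino acids are short, stood at 187, 197 and 188 CPM in TEADi and at 139, 165 and 177 CPM in GFP libraries (0.25 ± 0.08; limma, Benjamini-Hochberg adjusted p = 0.010). GFP library A was the lowest, and without it the log2 fold change of SLC38A2 was 0.16 (limma, Benjamini-Hochberg adjusted p = 0.021). Without GFP libraries A and B, which leaves 1 GFP library, it was 0.11 (limma, Benjamini-Hochberg adjusted p = 0.245), and with all 6 libraries the adjusted p was 0.0552 in limma without a variance trend (0.0012 to 0.245 over the alternatives). SLC1A5 over SLC38A2 was 0.776 ± 0.0747 in TEADi and 1.34 ± 0.116 in GFP.

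SLC38A4 (SNAT4), a carrier best known from liver and placenta, had the largest fitted fall of the members. On chromosome 12 (hg19, 47158546 to 47226191, minus strand), it stood at 1.98, 3.02 and 3.56 CPM in TEADi and at 8.99, 10.2 and 10.6 CPM in GFP libraries. The mean was 3.49-fold lower in TEADi (log2 fold change -1.53 ± 0.15; limma, Benjamini-Hochberg adjusted p = 2.6e-07). SLC6A15 (B0AT2), a sodium-coupled carrier of proline and branched-chain amino acids, fell, with 31.9, 36.03 and 33.1 CPM in TEADi and 49.6, 47.1 and 55.2 CPM in GFP libraries (-0.57 ± 0.08; limma, Benjamini-Hochberg adjusted p = 1.3e-05). SLC38A10, a less studied relative of the SNAT carriers on chromosome 17 (hg19, 79218800 to 79269347, minus strand), rose, with 138, 129 and 145 CPM in TEADi and 70.4, 84.9 and 84.9 CPM in GFP libraries. Its log2 fold change of 0.77 ± 0.08 was the largest rise among members above 10 CPM (limma, Benjamini-Hochberg adjusted p = 2.9e-07). SLC1A4 (ASCT1), which exchanges alanine, serine and cysteine, rose as well, with 19.2, 15.6 and 15.9 CPM in TEADi and 8.45, 10.3 and 11.9 CPM in GFP libraries (0.68 ± 0.13; limma, Benjamini-Hochberg adjusted p = 0.00017). The related SLC1A5 and SLC1A4 thus moved apart, and their ratio was 8.81 ± 1.13 in TEADi and 21.3 ± 2.94 in GFP.

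**Figure D3:**
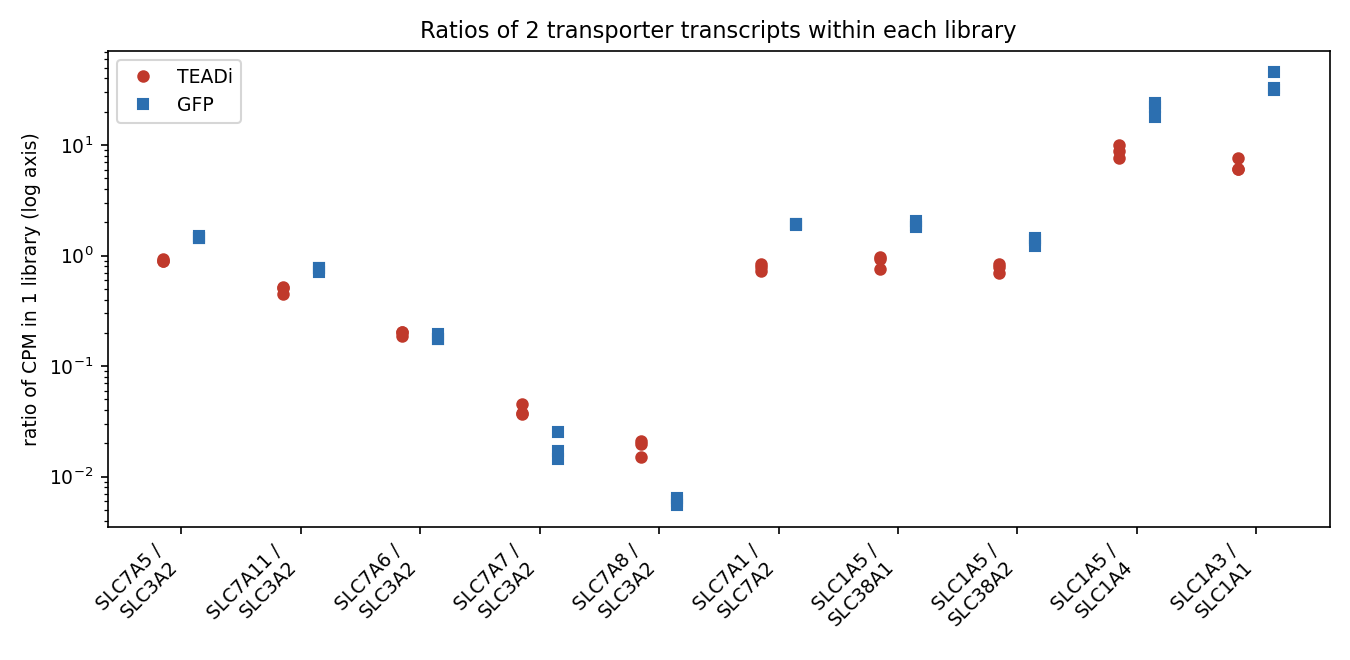
Ratio of the CPM of 2 transporter genes in each library on a log axis, TEADi (circles) left of GFP (squares) for each of 10 pairs. The pairs were chosen after the values were seen, mostly for having moved apart. SLC7A6 over SLC3A2 overlaps between the groups, and SLC7A1 over SLC7A2 lies at 0.728 to 0.839 in TEADi and 1.90 to 1.92 in GFP.

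Of the remaining neutral carriers SLC38A6 rose, with 17.3, 19.8 and 17.0 CPM in TEADi and 12.9, 12.4 and 11.9 CPM in GFP libraries (0.50 ± 0.10; limma, Benjamini-Hochberg adjusted p = 0.00037). Its gene overlaps TRMT5 on the opposite strand, which was expressed at 248.5% of its mean level and fell. SLC38A5 (SNAT5), a glutamine and glycine carrier, had 8.28, 7.48 and 10.7 CPM in TEADi and 5.60, 6.82 and 7.38 CPM in GFP libraries (0.37 ± 0.14; limma, Benjamini-Hochberg adjusted p = 0.034). Without TEADi library C its adjusted p was 0.206, without GFP library A 0.115, without GFP library B 0.0511 and 0.537 by the authors' deposited table. SLC43A1 (LAT3), a uniporter of leucine and its like, overlapped between groups, with 6.99, 6.04 and 8.38 CPM in TEADi and 6.37, 5.23 and 4.34 CPM in GFP libraries (0.37 ± 0.15; limma, Benjamini-Hochberg adjusted p = 0.040). Its call was lost without any of TEADi library A (0.0765), TEADi library C (0.197), GFP library B (0.0785) or GFP library C (0.158). It was also lost with quantile normalization (0.111), with no filter (0.114), without a variance trend (0.0529) and by the authors' deposited table (0.203). SLC43A2 (LAT4), its paralog, had 9.32, 9.35 and 10.1 CPM in TEADi and 7.32, 8.11 and 8.21 CPM in GFP libraries and missed the threshold (0.25, 95% interval 0.01 to 0.49; limma, Benjamini-Hochberg adjusted p = 0.063), but was called with libraries set to equal totals (0.018), with median-ratio factors (0.015) and without a variance trend (0.023).

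The glutamate carriers SLC1A1 and SLC1A3 were low. SLC1A1 (EAAT3), on chromosome 9 (hg19, 4490444 to 4587469, plus strand), stood at 2.59, 2.95 and 2.90 CPM in TEADi and at 0.714, 0.455 and 0.759 CPM in GFP libraries. Its mean was 4.37-fold higher in TEADi, and the fitted log2 fold change was 1.22. It passed the filter only because it was high there, and without any 1 TEADi library it was not tested, so these values are a description. SLC1A3 (EAAT1) fell, with 19.7, 17.98 and 17.6 CPM in TEADi and 23.6, 20.6 and 23.7 CPM in GFP libraries (-0.28 ± 0.09; limma, Benjamini-Hochberg adjusted p = 0.015). Without TEADi library C the adjusted p of SLC1A3 was 0.0607, without GFP library C 0.0527, with equal totals 0.0637 and with median-ratio factors 0.0882. The ratio of SLC1A3 to SLC1A1 was 6.59 ± 0.878 in TEADi and 36.5 ± 7.67 in GFP, a description too because it rests on SLC1A1.

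Among the members that work at the lysosome 1 of 4 was called, against 60.8% of all genes tested. SLC38A9, the arginine sensor, had 22.7, 27.0 and 25.3 CPM in TEADi and 19.8, 21.5 and 22.1 CPM in GFP libraries (0.23 ± 0.09; limma, Benjamini-Hochberg adjusted p = 0.039). Its call was lost without TEADi library B (0.178), TEADi library C (0.0993), GFP library A (0.0961) or GFP library B (0.0651). With all 6 libraries it was lost with no filter (0.0591) and without a variance trend (0.0539). The adjusted p of SLC38A9 was 0.0781 in the authors' deposited table. SLC38A7, which exports glutamine from lysosomes, averaged 21.4 ± 2.87 CPM in TEADi and 20.6 ± 3.05 in GFP (log2 fold change 0.05, 95% interval -0.19 to 0.30; limma, Benjamini-Hochberg adjusted p = 0.69). SLC36A1 (PAT1), a proton-coupled carrier of small amino acids, had 14.4, 14.9 and 14.6 CPM in TEADi and 10.2, 14.9 and 13.9 CPM in GFP libraries (0.18, 95% interval -0.08 to 0.44; limma, Benjamini-Hochberg adjusted p = 0.22). SLC36A4 (PAT4), which carries proline and tryptophan, averaged 40.6 ± 2.11 CPM in TEADi and 44.5 ± 0.454 in GFP (-0.13, 95% interval -0.29 to 0.02; limma, Benjamini-Hochberg adjusted p = 0.13). For these last 3 the intervals leave out changes of 2-fold but not small ones.

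The other members of SLC6 and SLC43 carry mostly different substrates. SLC43A3, a carrier of purine nucleobases, was the highest member per length and rose, with 445, 441 and 454 CPM in TEADi and 312, 332 and 329 CPM in GFP libraries (0.46 ± 0.06; limma, Benjamini-Hochberg adjusted p = 9.8e-06). SLC6A3, the dopamine transporter known from neurons, was expressed in this line and fell, with 14.0, 12.2 and 12.1 CPM in TEADi and 26.2, 25.0 and 23.0 CPM in GFP libraries (-0.90 ± 0.10; limma, Benjamini-Hochberg adjusted p = 6.0e-07). The groups of SLC6A3 did not overlap, but in the authors' deposited table its adjusted p was 0.124. SLC6A8, the creatine transporter, averaged 181 ± 10.1 CPM in TEADi and 196 ± 6.32 in GFP (-0.11, 95% interval -0.25 to 0.02; limma, Benjamini-Hochberg adjusted p = 0.14). SLC6A6, the taurine transporter, averaged 63.9 ± 2.33 CPM in TEADi and 62.2 ± 7.34 in GFP (0.05, 95% interval -0.13 to 0.22; limma, Benjamini-Hochberg adjusted p = 0.65). SLC6A9, the glycine transporter GlyT1, had 2.33, 2.59 and 1.87 CPM in TEADi and 0.952, 2.12 and 1.65 CPM in GFP libraries and missed the threshold (limma, Benjamini-Hochberg adjusted p = 0.097; 0.0325 without GFP library B and, by the authors' deposited table, 0.0470). It overlaps CCDC24 on the opposite strand, which was expressed at 222.7% of its mean level and rose.

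**Figure D4:**
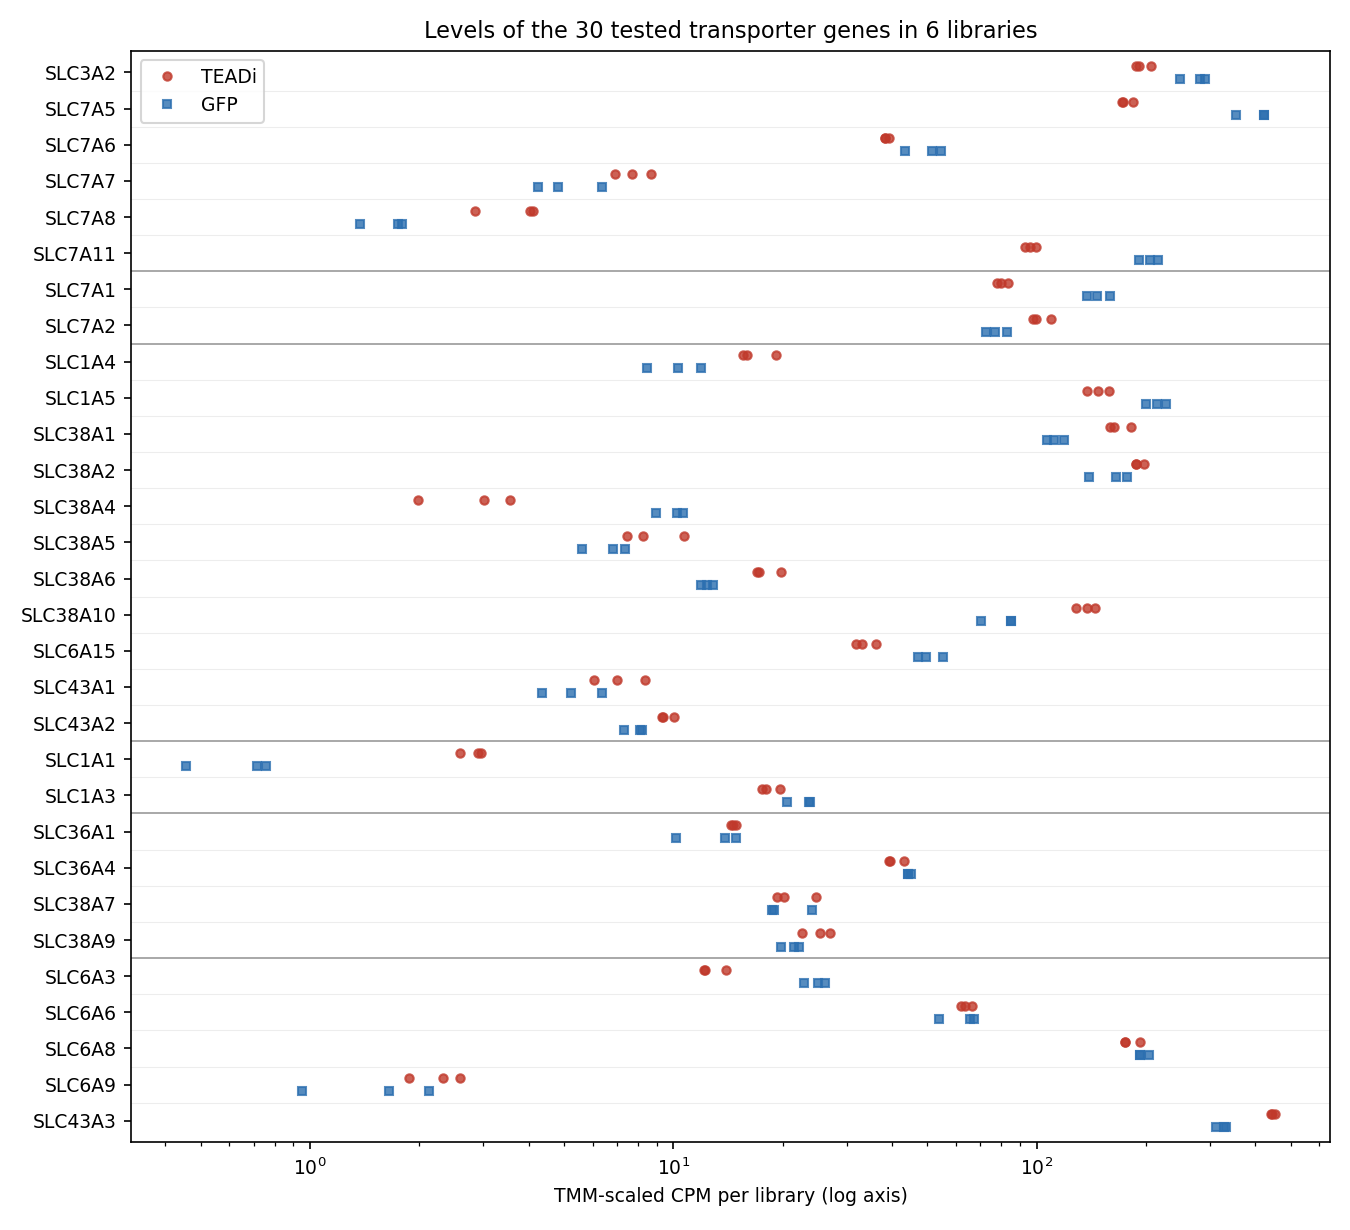
CPM of each tested member in the 3 TEADi libraries (circles, upper of each row) and the 3 GFP libraries (squares, lower) on a log axis, grouped by role. The rows run over the heavy and light chains, cationic, neutral and glutamine, acidic, lysosomal and other members. SLC7A5 lies at 171 to 184 CPM in TEADi and 355 to 424 in GFP.

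The 8 members below the filter reached at most 1.12 CPM in any library. The glutamate carrier SLC1A6 and the noradrenaline transporter SLC6A2 were at the smallest value, taken here to stand for no reads, in 6 of 6 libraries. The betaine transporter SLC6A12 was listed at 0.345, 0.288 and 0.724 CPM in TEADi libraries and at that smallest value in all 3 GFP libraries. With no filter it was called higher (limma, Benjamini-Hochberg adjusted p = 0.012), and its adjusted p was 0.00084 in the authors' deposited table. Its neighbour SLC6A13, a GABA transporter, stood at 1.12, 0.935 and 0.543 CPM in TEADi and 0.714, 0.227 and 0.414 CPM in GFP libraries, which overlap. SLC38A3, SLC6A11, SLC6A16 and SLC6A17 were at most 0.345 CPM in each library.

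Per length the order of the members was much alike in both groups. SLC43A3 came first (154 ± 2.35 CPM per kilobase in TEADi, 112 ± 3.69 in GFP) and SLC3A2 next (73.5 ± 3.79 in TEADi, 103 ± 8.33 in GFP). In TEADi SLC6A8 (46.5 ± 2.60), SLC1A5 (44.4 ± 3.16), SLC7A5 (38.4 ± 1.46) and SLC38A2 (38.1 ± 1.13) followed, of which SLC6A8 and SLC1A5, and SLC7A5 and SLC38A2, were within their spread of each other. In GFP the order was SLC7A5 (87.3 ± 8.60), SLC1A5 (64.3 ± 3.97), SLC6A8 (50.4 ± 1.62) and SLC38A2 (32.1 ± 3.84). By rank SLC7A11 was 11 in TEADi and 7 in GFP, SLC38A10 was 7 in TEADi and 9 in GFP, and SLC38A4 was 29 in TEADi and 21 in GFP.

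Carriers of amino acids in other SLC families counted 4 higher and 6 lower of 16 tested (median log2 fold change -0.21), a share near the 60.8% of all genes called. SLC17A5 (sialin), a lysosomal carrier of sialic acid and acidic amino acids, had 15.7, 15.3 and 15.4 CPM in TEADi and 5.83, 7.73 and 7.17 CPM in GFP libraries (1.06 ± 0.12; limma, Benjamini-Hochberg adjusted p = 6.7e-07). CTNS (cystinosin), which lets cystine out of lysosomes, averaged 55.6 ± 0.973 CPM in TEADi and 38.5 ± 2.69 in GFP (0.52 ± 0.08; limma, Benjamini-Hochberg adjusted p = 1.4e-05). SLC16A10, a carrier of aromatic amino acids, averaged 1.08 ± 0.308 CPM in TEADi and 2.38 ± 0.153 in GFP (-0.71 ± 0.16; limma, Benjamini-Hochberg adjusted p = 0.0012). Of 31 genes that sense amino acids upstream of mTORC1, 11 were higher and 7 lower (median 0.10), again near that share. RRAGD, a Rag GTPase, averaged 24.3 ± 1.31 CPM in TEADi and 10.5 ± 0.224 in GFP (1.14 ± 0.10; limma, Benjamini-Hochberg adjusted p = 2.5e-08), and the arginine sensor gene GATSL3 (CASTOR1) 5.89 ± 0.765 CPM in TEADi and 2.06 ± 0.220 in GFP (1.17 ± 0.14; limma, Benjamini-Hochberg adjusted p = 2.4e-06). RHEB, the GTPase that activates mTORC1, averaged 39.1 ± 0.374 CPM in TEADi and 69.1 ± 9.47 in GFP (-0.80 ± 0.09; limma, Benjamini-Hochberg adjusted p = 6.35e-07).

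ATF4 is the transcription factor through which shortage of amino acids raises many carriers, SLC7A11, SLC7A5, SLC3A2 and SLC38A2 among them, in other cells. Of 13 tested genes of the ATF4 branch 9 were lower and 2 higher in TEADi (median log2 fold change -0.37). Of all genes tested 35.3% were lower and 25.5% higher. ATF4 stood at 86.8, 93.8 and 95.04 CPM in TEADi and at 130, 131 and 126 CPM in GFP libraries (-0.49 ± 0.06; limma, Benjamini-Hochberg adjusted p = 6.0e-06). ATF5, a related factor, averaged 23.3 ± 0.675 CPM in TEADi and 39.4 ± 2.29 in GFP (-0.73 ± 0.08; limma, Benjamini-Hochberg adjusted p = 7.5e-07), and CEBPG, a partner of ATF4, 21.1 ± 1.28 CPM in TEADi and 33.3 ± 3.07 in GFP (-0.63 ± 0.09; limma, Benjamini-Hochberg adjusted p = 1.5e-05). CEBPB rose (120 ± 7.90 CPM in TEADi, 85.4 ± 6.54 in GFP). ATF4 is controlled mainly at translation, which these data do not measure, and its part in the transporter values was not tested.

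**Figure D5:**
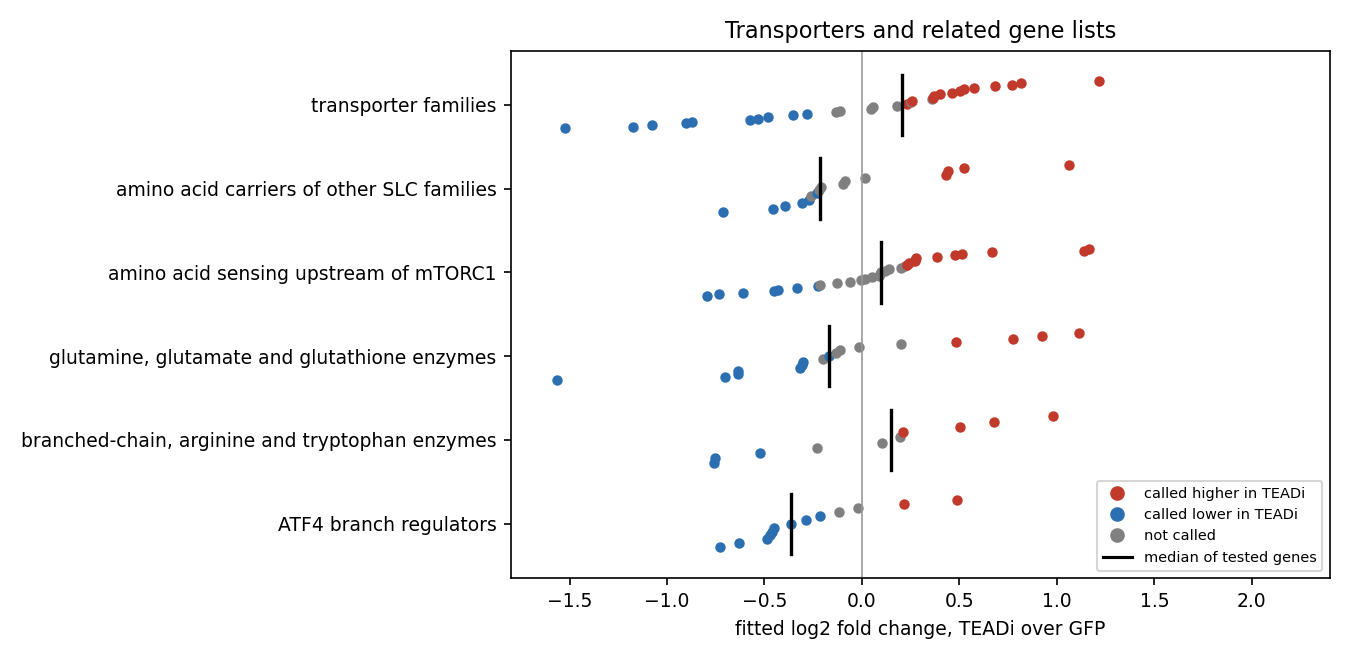
Fitted log2 fold change of TEADi over GFP for each tested gene of the transporter families and of 5 related lists, 1 point per gene with medians as black lines. The transporters have their median at 0.21 and the ATF4 branch at -0.37.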

How the data were processed

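Values for 6 libraries of SCC9 cells were analysed. Polyadenylated RNA went into TruSeq mRNA libraries, per the labels' protocols. Tools in the submitters' processing notes, listed without roles, are Partek 8.0.19.0819, STAR 2.5.1 and Trimmomatic 0.36, with hg19 as the build; the quantifier, annotation and use of strand are not given in the sources used here. The deposited CPM were scaled by the authors with TMM factors, and no value is 0. The authors' p-value and adjusted p, and their ratio and signed fold score of TEADi over GFP, were deposited in a table whose test is not named. Each member had 1 entry; other symbols with several entries (421) were summed above the library's smallest value, which left 19437 genes.

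Genes with at least 1 CPM in 3 of 6 libraries were fitted on log2(CPM + 1) with limma 3.58.1 in R 4.3.3 (eBayes with a variance trend), in a two-sided test whose p-values were adjusted by Benjamini-Hochberg over the 13640 genes, at a threshold of 0.05. The code was tested on simulated data. Between 84.2% and 86.1% of a library's entries lay within 0.05 of a whole multiple of its smallest value, so reads were not recovered for nearly all genes and no test on counts was made. Library letters were not used as pairs. Exon lengths came from GENCODE 29 and promoters from RefSeq on GRCh38.p14; gene coordinates follow the authors' hg19 columns, the end being the stop minus 1. Members and lists were chosen with earlier results of these data known. Members described in full were those called with at least a 2-fold change, the heavy chain with its light chains, the principal carriers of each role, and exceptions within a family; of other lists, the 3 largest called changes and ATF4, ASNS, GLUL, GCLC and GCLM; 1 further gene that the rule names is not reported here. The 10 ratios, DCN, PDGFRA, LUM, KRT5, KRT8, KRT14 and ANKRD1 were chosen after their values were seen. Other code ran in Python 3.11.15 with matplotlib 3.10.9, scipy 1.17.1, pandas 2.3.3 and numpy 2.4.6.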

Additional observations from a re-analysis of the deposited data

How the results depend on the processing

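Alternatives covered the pseudocount (0.1 and 5), the filter, 3 scalings, the variance trend, merging, the library letter as a replicate block, each library left out, GFP libraries A and B left out, and the authors' deposited p-values. Leaving aside the fit with 1 GFP library, 9 to 14 members were called higher and 9 or 10 lower. Over all genes 2695 to 4342 were called higher and 3959 to 4872 lower. The members tested ranged from 27 to 38, so these counts are not all of the same set. No label ties libraries of 1 letter to a common culture or day, and deviations of same-letter libraries from their group means correlated at 0.08, -0.06 and -0.02 across genes; with the replicate block the counts were 13 and 10, and no member's call changed. SLC7A5, SLC7A11, SLC3A2, SLC7A1, SLC1A5, SLC38A1, SLC38A10 and SLC38A4 kept their direction and call in every alternative that tested them. So did SLC43A3, SLC6A15, SLC38A6, SLC7A8, SLC1A4, SLC7A2 and SLC7A6. The sign of 2 members that were not called turned. The log2 fold change of SLC38A7 lay between -0.047 (without TEADi library C) and 0.17 (without GFP library B) when 1 library was left out, and that of SLC6A6 between -0.054 (without GFP library A) and 0.11 (without GFP library C), and it was -0.074 without GFP libraries A and B; the cause was not tested. The 5 CPM filter left 27 members. Depth limits the genes near 1 CPM, where the pseudocount shrinks the fold change.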

Other observations

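Enzymes that use what these carriers bring in are set against all genes tested, of which 60.8% were called, 25.5% higher and 35.3% lower. Of 17 tested genes of glutamine, glutamate and glutathione metabolism 4 were higher and 8 lower in TEADi (median log2 fold change -0.17). ASNS, asparagine synthetase, stood at 6.12, 8.49 and 7.84 CPM in TEADi and at 23.6, 24.6 and 23.5 CPM in GFP libraries, the largest change of that list (-1.56 ± 0.12; limma, Benjamini-Hochberg adjusted p = 5.3e-09). Glutamine synthetase, GLUL, averaged 106 ± 3.85 CPM in TEADi and 115 ± 8.60 in GFP and was not called (limma, Benjamini-Hochberg adjusted p = 0.18). The 2 subunits of the enzyme that starts glutathione synthesis moved apart. The catalytic subunit GCLC stood at 89.9 ± 3.24 CPM in TEADi and 64.0 ± 3.87 in GFP (0.48 ± 0.07; limma, Benjamini-Hochberg adjusted p = 1.4e-05), and the modifier GCLM at 80.6 ± 7.85 CPM in TEADi and 100 ± 11.6 in GFP (-0.31 ± 0.09; limma, Benjamini-Hochberg adjusted p = 0.0055). GGT1, which cleaves glutathione outside the cell, rose to 46.9 ± 5.84 CPM in TEADi, against 21.1 ± 1.25 in GFP, and OPLAH, which turns oxoproline into glutamate, to 11.3 ± 0.912 in TEADi, against 5.62 ± 1.61 in GFP.

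Of 10 tested enzymes of branched-chain amino acids, arginine and tryptophan 4 were higher and 3 lower (median log2 fold change 0.15). KYNU, an enzyme of tryptophan breakdown, averaged 201 ± 7.21 CPM in TEADi and 102 ± 14.1 in GFP (0.98 ± 0.08; limma, Benjamini-Hochberg adjusted p = 2.5e-08). ODC1, which makes polyamines from ornithine, averaged 132 ± 3.67 CPM in TEADi and 225 ± 20.1 in GFP (-0.76 ± 0.07; limma, Benjamini-Hochberg adjusted p = 9.7e-08), and the arginase ARG2 7.40 ± 1.14 CPM in TEADi and 13.1 ± 1.22 in GFP (-0.75 ± 0.13; limma, Benjamini-Hochberg adjusted p = 6.3e-05). These enzyme lists and the transporters were measured in the same 6 libraries.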
